A study of Mus musculus with 6 samples.

Results

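The 10 genes Hspa5, Dnajb9, Sdf2l1, Herpud1, Xbp1, Atf4, Ddit3, Trib3, Asns and Chac1 stand for the stress response of the endoplasmic reticulum (ER) and for the amino acid response. They were picked by name from the 56674 rows of the deposited count table, where each had 1 row. All 10 passed the default expression filter, which left 18043 genes to test. RNA came from the liver of male C57BL/6 mice reared for 71 weeks on normal chow (3 libraries) or on chow containing polyethylene microplastic, PE-MP (3 libraries). All libraries were made by poly(A) selection, and the labels give neither the dose of PE-MP nor the age at the start. One treatment note naming PE-MP chow stands on all 6 samples, so the groups were taken from the titles and the treatment label. The libraries are called replicates without a statement that each is a separate animal, and the p-values therefore speak only of library-to-library spread, possibly technical.

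When unfolded proteins build up in the ER lumen, sensors in the ER membrane raise the supply of chaperones and degradation factors and slow protein synthesis. One branch splices Xbp1 mRNA, a further branch releases the factor ATF6, and PERK phosphorylates the initiation factor eIF2. The kinase GCN2 phosphorylates the same factor when amino acids are scarce, and both kinases favour translation of ATF4, which turns on genes of amino acid supply and, under lasting stress, Ddit3. Hepatocytes secrete most plasma proteins and carry a large ER. Gene counts show neither the splicing of Xbp1 nor the translation of Atf4, so only mRNA levels are described.

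Short elements near the start of some of these genes are known from work on the pathway. The 250 bases before the RefSeq transcript start (build GRCm38.p6) were found for all 10 and searched on both strands for 5 motifs, and the stretches around the matches are printed because they let the letters of each match be seen in place. The motifs were ERSE (CCAAT, any 9 bases, CCACG), the ER stress element bound by ATF6 with NF-Y; ERSE-II (ATTGG, any 1 base, CCACG); the core of the unfolded protein response element UPRE (TGACGTG); CARE (TGATGNAAN), the C/EBP-ATF element bound by ATF4; and a variant of CARE (TGACGCAAN) that was added after the sequences had been seen. Each stretch runs 5′ to 3′ on the strand of its gene with matches in capitals.
Hspa5: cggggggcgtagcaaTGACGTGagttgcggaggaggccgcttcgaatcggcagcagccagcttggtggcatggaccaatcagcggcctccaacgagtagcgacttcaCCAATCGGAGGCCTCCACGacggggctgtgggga
Herpud1: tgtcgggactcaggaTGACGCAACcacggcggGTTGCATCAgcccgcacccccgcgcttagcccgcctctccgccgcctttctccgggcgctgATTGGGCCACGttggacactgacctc
Chac1: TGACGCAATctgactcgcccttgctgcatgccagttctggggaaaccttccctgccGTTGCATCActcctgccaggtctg
Asns: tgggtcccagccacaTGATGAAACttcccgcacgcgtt
Dnajb9: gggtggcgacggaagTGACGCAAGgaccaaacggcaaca

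The Hspa5 stretch lies at chr2:34771918-34772058 on the plus strand, and its capitals mark the UPRE core and then the ERSE. Herpud1, at chr8:94386284-94386402 on the plus strand, shows the CARE variant, a CARE read on the opposite strand and the ERSE-II. Chac1, at chr2:119350992-119351071 on the plus strand, shows the CARE variant and a CARE on the opposite strand. Asns, at chr6:7693210-7693247 on the minus strand, shows 1 CARE, and Dnajb9, at chr12:44210185-44210223 on the minus strand, shows the CARE variant. Of 32851 RefSeq windows of the same 250 bases, 0.113% held the ERSE, 0.0304% the ERSE-II, 1.65% the UPRE core, 3.44% a CARE and 0.438% the variant. No full match to these motifs stood in the windows of Sdf2l1, Xbp1, Atf4, Ddit3 and Trib3, and near matches were not searched. A match describes the sequence only.

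None of the 10 stress genes passed the test between the chows. By edgeR's quasi-likelihood test with Benjamini-Hochberg adjustment over all genes, 0 of the 10 passed an adjusted p of 0.05 in either direction, where 0.00554% of all tested genes passed. At an unadjusted p under 0.05 there were 0 of the 10, against 17.9% of all tested genes (9.10% higher and 8.82% lower under PE-MP chow). DESeq2 and limma-voom also called 0 of the 10, where DESeq2 called 6.57% of all tested genes (3.10% higher, 3.48% lower) and limma-voom 0.0831% (0.0333% higher, 0.0499% lower). In 0 of the 10 genes did the chows separate without overlap, against 26.0% of all tested genes. The fold change was positive for 8 of the 10 and negative for Asns and Chac1, with a median log2 fold change of 0.18 beside 0.02 over all tested genes.

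**Figure D1:**
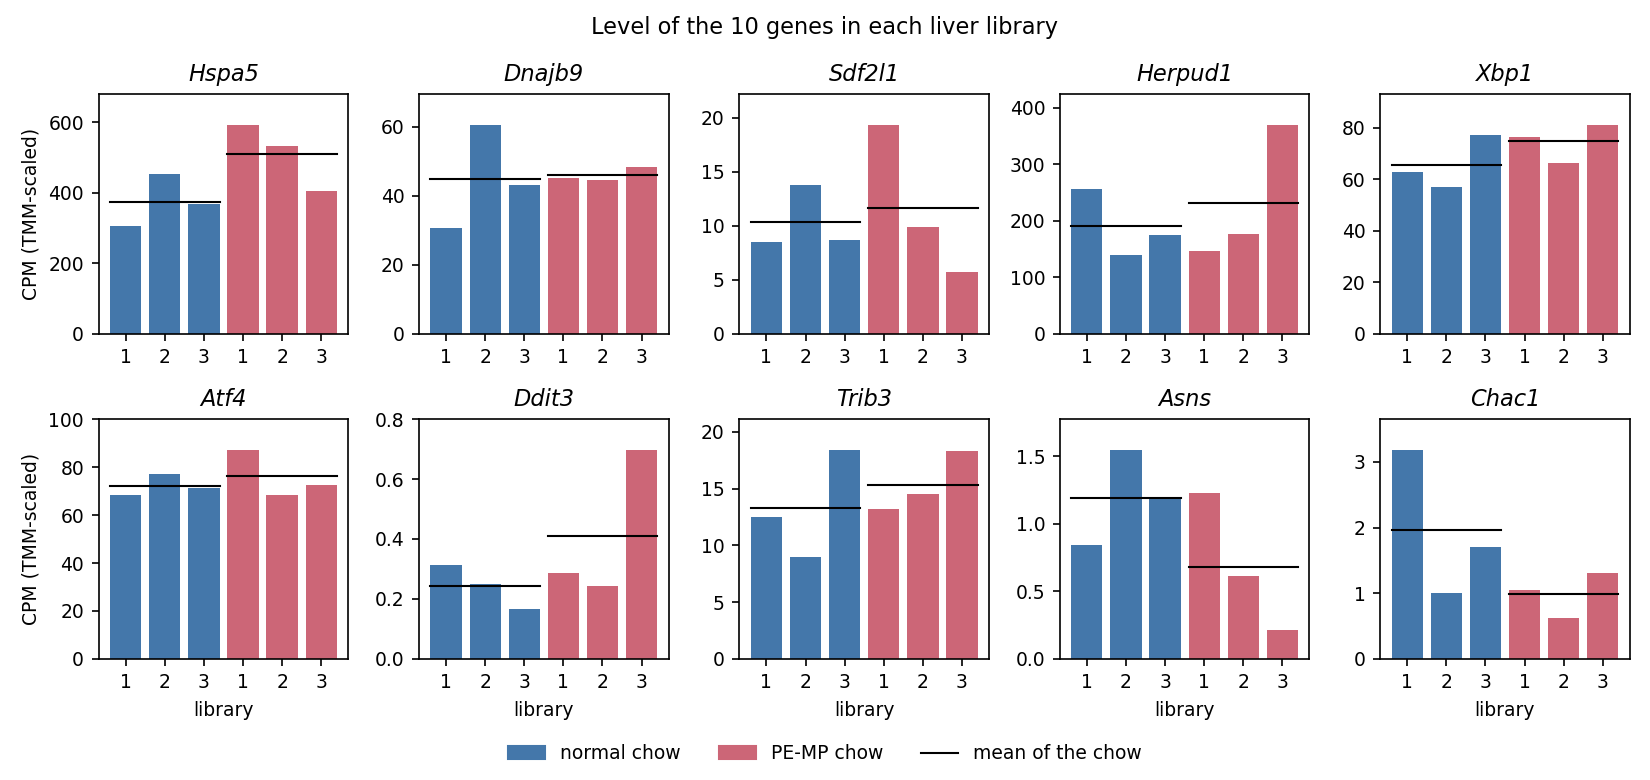
Level of each gene (counts per 1000000 counts, CPM, scaled by TMM factors; each axis starts at 0) in the 3 normal chow libraries (blue) and the 3 PE-MP libraries (red), with the mean of each chow as a line. The chows overlap in all 10 panels, and PE-MP library 3 alone holds the tallest bar for Herpud1 and Ddit3 and the shortest for Asns and Sdf2l1.

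Levels below are TMM-scaled CPM, computed from the deposited raw counts. Library totals ran from 68357478 to 112566641 counts. The TMM factors parted the chows, at 0.879 to 0.923 under normal chow and 1.07 to 1.17 under PE-MP chow. The mitochondrially encoded mRNAs took 14.2% to 15.1% of the counts under normal chow and 8.63% to 9.19% under PE-MP chow. The ribosomal RNA gene Rn18s-rs5 took 11.2% of normal chow library 2 and 0.334% to 5.98% of the other libraries. A set of 8 hepatocyte markers was present in every library. Their sum was 55903 to 76433 CPM of total counts under normal chow and 82824 to 86036 under PE-MP chow. On the TMM scale 7 of the 8 were positive, with a median log2 fold change of 0.016 beside 0.02 over all tested genes.

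Hspa5 codes for BiP, the main HSP70 chaperone of the ER lumen, which also holds the stress sensors inactive. It stood at 306, 452 and 368 CPM in normal chow libraries 1, 2 and 3, and at 593, 532 and 405 CPM in PE-MP libraries 1, 2 and 3. PE-MP libraries 1 and 2 lay above all normal chow libraries, and PE-MP library 3 lay below normal chow library 2. Mean levels were 375 ± 73.4 CPM under normal chow and 510 ± 95.9 CPM under PE-MP chow (SD, n = 3 each). This gave a log2 fold change of 0.44 ± 0.20 (SE), with a 95% interval of -0.04 to 0.92. The edgeR adjusted p was 0.310, and Hspa5 had the smallest unadjusted p of the 10 genes (0.0665).

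Whether Hspa5 overlapped between the chows depended on the scale. On total counts with no scaling factors, an alternative chosen after seeing the data, Hspa5 was at 282 to 398 CPM under normal chow and 474 to 635 CPM under PE-MP chow, without overlap (log2 fold change 0.74 ± 0.18, edgeR adjusted p = 0.0787). Atf4 and Xbp1 also parted on that scale, at 0.37 ± 0.13 (edgeR adjusted p = 0.126) and 0.49 ± 0.17 (edgeR adjusted p = 0.131). The total-count scale puts the chows apart for many genes: 34.6% of all tested genes lay higher under PE-MP chow without overlap and 2.65% lower, and the median log2 fold change of all genes moved from 0.02 to 0.32. For the 10 genes the median moved from 0.18 to 0.47, and 0 of them were called on that scale, where 0.0554% of all tested genes were called, all higher. With the mitochondrial mRNAs and Rn18s-rs5 also left out, again with no scaling factors, 0 of the 10 genes parted the chows, where 22.7% of all tested genes lay higher and 6.17% lower without overlap. On that scale Hspa5 was at 0.60 ± 0.21 (edgeR adjusted p = 0.2002), Atf4 at 0.24 ± 0.14 (edgeR adjusted p = 0.370) and Xbp1 at 0.36 ± 0.14 (edgeR adjusted p = 0.225).

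**Figure D2:**
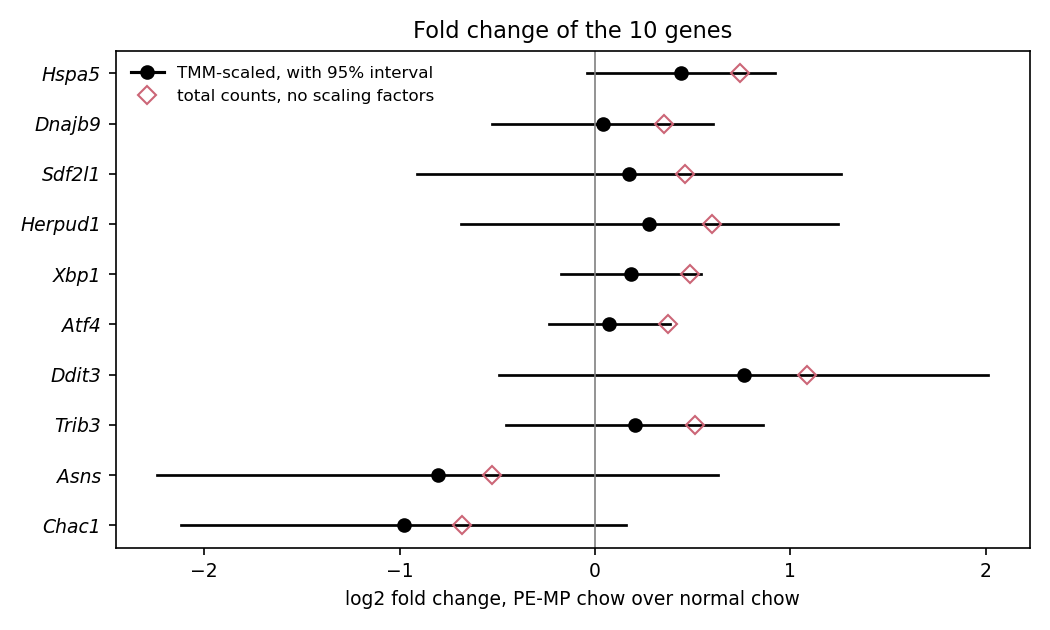
Log2 fold change of PE-MP over normal chow for each of the 10 genes, as TMM-scaled estimates with 95% intervals (black) and on total counts with no scaling factors (open red diamonds). All 10 black intervals cross 0, and every diamond lies to the right of its black point, Hspa5 at 0.74 against 0.44.

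The other ER-resident members had log2 fold changes nearer to 0 than Hspa5. Dnajb9 codes for ERdj4, an HSP40 co-chaperone of BiP. It stood at 30.8, 60.5 and 43.1 CPM in the normal chow libraries and at 45.0, 44.7 and 48.3 CPM in the PE-MP libraries. The PE-MP values lay close together and inside the normal chow range, and the log2 fold change was 0.04 ± 0.24 (edgeR adjusted p = 0.945). Its 95% interval, -0.52 to 0.60, runs from 0.695-fold to 1.52-fold of the normal chow level.

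Sdf2l1, an ER lumen protein that works with ERdj proteins, varied more within PE-MP chow than between chows. Its levels were 8.54, 13.8 and 8.66 CPM under normal chow and 19.3, 9.92 and 5.71 CPM under PE-MP chow. PE-MP library 1 was the highest of all 6 libraries and PE-MP library 3 the lowest. Its log2 fold change was 0.18 ± 0.45 (edgeR adjusted p = 0.866); dropping PE-MP library 1 gave -0.40, and dropping PE-MP library 3 gave 0.49.

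Herpud1 codes for an ER membrane protein that helps the degradation of misfolded proteins. It stood at 256, 140 and 175 CPM under normal chow and at 146, 177 and 370 CPM under PE-MP chow. PE-MP library 3 was the highest of all, while the other PE-MP libraries lay inside the normal chow range. Its log2 fold change was 0.28 ± 0.40 (edgeR adjusted p = 0.745) and turned to -0.24 without PE-MP library 3. Of 1001 tested genes nearest to Herpud1 in mean level, 94.7% had a lower fitted dispersion between libraries of a chow.

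The transcription factor genes Xbp1 and Atf4 varied least of the 10 genes over the 6 libraries. Their ratios of highest to lowest level were 1.42 and 1.27, against 7.24 for Asns, the largest of the 10. Xbp1, whose spliced form encodes the active factor, was at 62.8, 57.1 and 77.2 CPM under normal chow and at 76.6, 66.2 and 81.1 CPM under PE-MP chow. The chows overlapped, and the log2 fold change was 0.18 ± 0.15 (95% interval -0.18 to 0.54, edgeR adjusted p = 0.554). Dropping normal chow library 2 gave 0.088. Without normal chow library 3 it was 0.31, and Xbp1 and Trib3 then lay higher without overlap, as did 17.2% of all tested genes (14.4% lower). Atf4, the factor translated when eIF2 is phosphorylated, was at 68.6, 77.2 and 71.3 CPM under normal chow and at 87.2, 68.5 and 72.8 CPM under PE-MP chow. PE-MP library 1 alone exceeded the normal chow libraries. The log2 fold change was 0.07 ± 0.13 (95% interval -0.23 to 0.38, edgeR adjusted p = 0.793), so the interval runs from 0.850-fold to 1.303-fold. Without PE-MP library 1 it was -0.03.

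Ddit3, which codes for the pro-death factor CHOP, had the lowest mean level of the 10 under each chow, with 22, 15 and 17 counts under normal chow and 27, 20 and 75 under PE-MP chow. The 75 counts of PE-MP library 3 carry an exact 95% Poisson interval of 59.0 to 94.0, which covers counting error only, and lie above the other 5 libraries. In CPM the values were 0.314, 0.250 and 0.168 against 0.286, 0.244 and 0.697. PE-MP libraries 1 and 2 lay within the normal chow range. For Ddit3 the log2 fold change was 0.76 ± 0.53 (95% interval -0.49 to 2.01, edgeR adjusted p = 0.480), and it was 0.12 without PE-MP library 3. In GENCODE M21, 3.97% of the exon bases of Ddit3 are shared with the methionyl-tRNA synthetase gene Mars1 (Mars in that annotation) on the opposite strand, and 6.13% with a second gene model of the same name. Mars1 had 34.2, 10.03 and 15.3 CPM under normal chow and 21.4, 22.8 and 37.4 CPM under PE-MP chow, also highest in PE-MP library 3; the strand setting of the counting is not given in the sources used here, and the part of shared reads was not tested.

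The targets of ATF4 and CHOP had fold changes of both signs. Trib3, a pseudokinase that binds AKT and ATF4, was at 12.5, 8.99 and 18.4 CPM under normal chow and at 13.2, 14.5 and 18.3 CPM under PE-MP chow. All PE-MP values fell inside the normal chow range, with a log2 fold change of 0.20 ± 0.28 (edgeR adjusted p = 0.727). Dropping normal chow library 3 gave 0.51, and dropping normal chow library 2 gave -0.02.

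Asns codes for asparagine synthetase, the classic gene of the amino acid response. It had 59, 93 and 121 counts under normal chow and 116, 50 and 23 under PE-MP chow, or 0.842, 1.55 and 1.19 against 1.23, 0.610 and 0.214 CPM. PE-MP libraries 2 and 3 lay below all normal chow libraries and PE-MP library 1 lay among them. The log2 fold change was -0.81 ± 0.60 (95% interval -2.24 to 0.63, edgeR adjusted p = 0.512). Dropping PE-MP library 1 gave -1.54, and dropping PE-MP library 3 gave -0.39.

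Chac1 codes for a glutathione-degrading cyclotransferase induced by ATF4. It had 223, 60 and 173 counts under normal chow and 99, 51 and 141 under PE-MP chow. In CPM the values were 3.18, 0.998 and 1.71 against 1.05, 0.622 and 1.31. Normal chow library 1 was the highest of all, and normal chow library 2 lay inside the PE-MP range. The log2 fold change of -0.98 ± 0.48 (95% interval -2.12 to 0.16, edgeR adjusted p = 0.333) was the most negative of the 10. Dropping normal chow library 1 gave -0.45, and dropping normal chow library 2 gave -1.296.

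**Figure D3:**
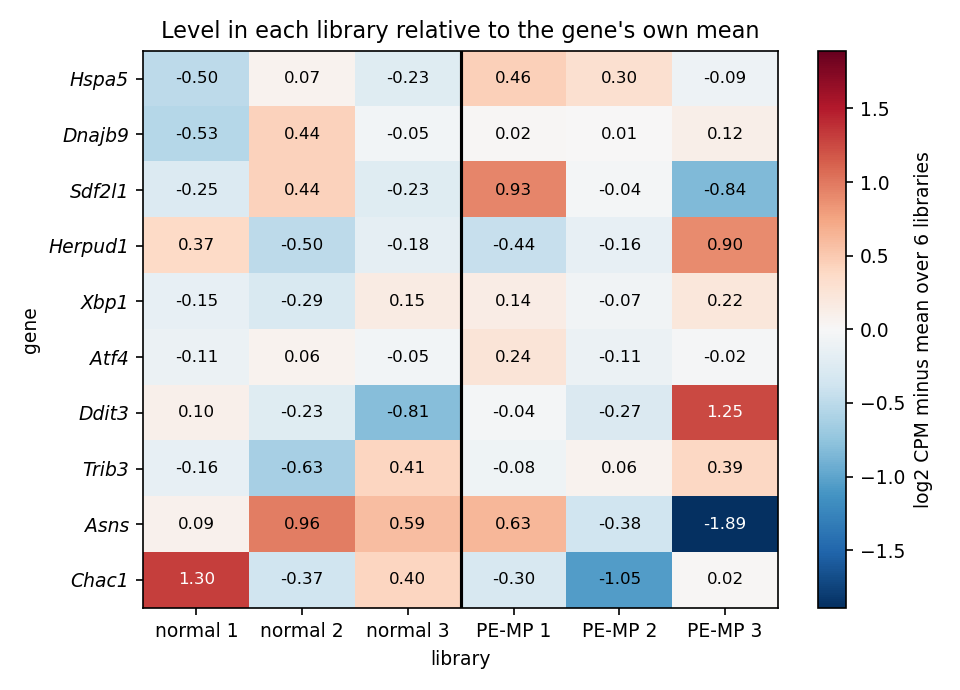
Log2 CPM of each gene (rows) in each library (columns) minus the mean of that gene over the 6 libraries, red above and blue below the mean, with normal chow left of the black line. In PE-MP library 3 Ddit3 (1.25) and Herpud1 (0.90) are red while Asns (-1.89) and Sdf2l1 (-0.84) are blue, and Hspa5 stays within 0.50 of its mean in every library.

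The 10 genes did not share 1 profile over the libraries. PE-MP library 3 had the highest Herpud1, Ddit3 and Xbp1 and the lowest Asns and Sdf2l1. PE-MP library 1 had the highest Hspa5, Sdf2l1 and Atf4. Normal chow library 1 had the highest Chac1 and the lowest Hspa5 and Dnajb9. Normal chow library 2, which carried the largest Rn18s-rs5 share, had the highest Dnajb9 and Asns and the lowest Herpud1, Xbp1 and Trib3. The mean of the centred values over the 10 genes stayed between -0.17 (PE-MP library 2) and 0.15 (PE-MP library 1), so highs and lows offset each other within a library.

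Herpud1 and Sdf2l1, both classed as ER stress genes, ran in nearly opposite library order. From high to low, Herpud1 went PE-MP 3, normal 1, PE-MP 2, normal 3, PE-MP 1 and normal 2. Sdf2l1 went PE-MP 1, normal 2, PE-MP 2, normal 3, normal 1 and PE-MP 3. This pair was singled out after the values were seen and is given as a description.

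Per kilobase of exon (GENCODE M21 gene lengths), the 10 genes kept the same order of mean level under both chows. Under normal chow Hspa5 came first at 88.8 ± 17.4 CPM per kilobase, followed by Herpud1 at 81.6 ± 25.6, and these 2 overlapped. Atf4 came next at 30.7 ± 1.87, then Xbp1 at 20.2 ± 3.19, Dnajb9 at 17.6 ± 5.87, Sdf2l1 at 9.32 ± 2.70 and Trib3 at 6.25 ± 2.24 (SD, n = 3). From Xbp1 down to Trib3, each gene overlapped its neighbour in that order, while Atf4 lay apart from Xbp1. Chac1 at 1.20 ± 0.681, Asns at 0.437 ± 0.129 and Ddit3 at 0.142 ± 0.0428 CPM per kilobase formed the low end, each apart from its neighbours. Under PE-MP chow the levels were 121 ± 22.7 for Hspa5 and 99.0 ± 51.9 for Herpud1, and 0.250 ± 0.187 for Asns and 0.239 ± 0.146 CPM per kilobase for Ddit3; each of these pairs overlapped. In PE-MP library 3 both orders turned, with Herpud1 at 158 above Hspa5 at 95.8 and Ddit3 at 0.407 above Asns at 0.0782 CPM per kilobase. Normal chow library 1 also had Herpud1 above Hspa5, at 109.9 against 72.3 CPM per kilobase.

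By the root mean square difference of centred log2 CPM over the 6 libraries, the 3 profiles most like that of Hspa5 among 12563 genes of at least 1 CPM were those of Cybb (0.043), which codes for the catalytic subunit of the phagocyte NADPH oxidase, Tjp1 (0.073), which codes for a tight junction protein, and Adam23 (0.074). Their log2 fold changes were 0.47 ± 0.21, 0.34 ± 0.18 and 0.49 ± 0.22. Atf4, the nearest of the other members compared, ranked 1264th. Ddit3 and Asns fell below 1 CPM on average and were not among the genes compared. For Asns the 3 nearest of 12564 were Rpl36a-ps2 (0.135), Scarna2 (0.276) and Gabarapl1 (0.276), and Sdf2l1 ranked 85th (0.632).

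**Figure D4:**
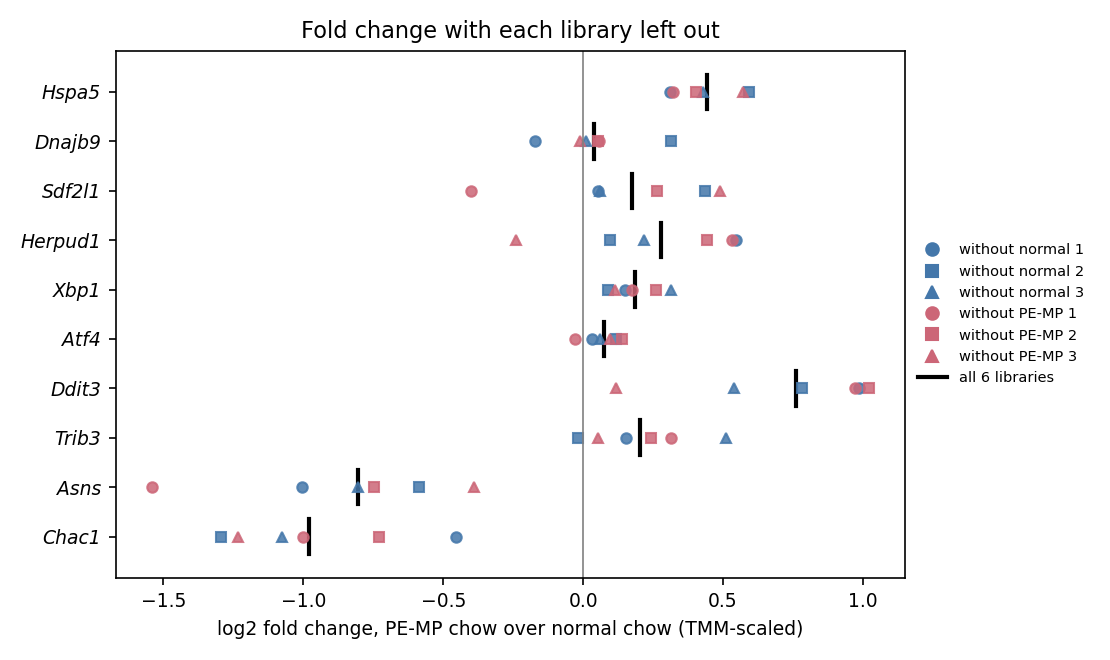
TMM-scaled log2 fold change of PE-MP over normal chow for each gene with all 6 libraries (black bar) and with each library left out in turn (blue, a normal chow library; red, a PE-MP library; circle, square and triangle for libraries 1, 2 and 3). Hspa5 keeps between 0.31 and 0.59 throughout, whereas Sdf2l1, Herpud1, Dnajb9, Trib3 and Atf4 have points on both sides of 0.

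Leaving out 1 library at a time called 0 of the 10 genes in any of the 6 fits. Normal chow library 2 mattered most for the separation of the chows: without it, Hspa5 (log2 fold change 0.59 ± 0.19, edgeR adjusted p = 0.117) and Dnajb9 (0.31 ± 0.16, edgeR adjusted p = 0.267) lay higher and Chac1 (-1.296 ± 0.42, edgeR adjusted p = 0.115) lower without overlap. In that fit 25.8% of all tested genes lay higher and 23.9% lower without overlap, and 5.65% were called (2.38% higher, 3.27% lower).

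The wider pathway was described with 10 lists, of which 131 genes were tested. By edgeR 0 passed in either direction over all genes, and limma-voom called 0. At an unadjusted edgeR p under 0.05 there were 16, or 12.2% of the 131 beside 17.9% of all tested genes. DESeq2 called 8 (1 higher, 7 lower), or 6.11% beside 6.57% of all tested genes. Without normal chow library 2 edgeR called 6 of the listed genes (1 higher, 5 lower), where it called 5.65% of all tested genes. The chows did not overlap for 7 genes upwards and 15 downwards, or 5.34% and 11.5% of the 131, beside 14.2% and 11.8% of all tested genes. On total counts with no scaling factors all 10 list medians were positive, from 0.04 to 0.57, where the median of all genes was 0.32. The list medians on total counts given below stand beside that value.

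Of the 7 sensors and their proteases, 4 had positive and 3 negative fold changes, with a median of 0.06. That median turned negative without PE-MP library 3 (-0.15), PE-MP library 1 (-0.029) or normal chow library 3 (-0.051). Ern1, the IRE1 sensor that splices Xbp1 mRNA, was at 29.7 to 35.8 CPM under normal chow and 38.1 to 43.8 CPM under PE-MP chow, without overlap (log2 fold change 0.29 ± 0.13, edgeR adjusted p = 0.293). Creb3l3, a liver-enriched factor that is anchored in the ER membrane and cut like ATF6, stood at 299, 12.6 and 306 CPM in normal chow libraries 1, 2 and 3. In the PE-MP libraries it stood at 20.0, 21.4 and 13.5 CPM. Normal chow library 2 thus lay below all PE-MP libraries and the other normal chow libraries far above them. The log2 fold change was -3.49 ± 1.08 (edgeR adjusted p = 0.198), and without normal chow library 2 it was -4.05 ± 0.22 (edgeR adjusted p = 0.00936). DESeq2 on all libraries gave an adjusted p of 0.0275. By limma-voom the log2 fold change was -2.57 ± 1.24 (limma-voom adjusted p = 0.290). The edgeR adjusted p was 0.391 with the replicate number as a block. It was 0.364 to 0.434 when any library other than normal chow library 2 was left out.

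The eIF2 kinases, phosphatase subunits and eIF2B genes were evenly split, with 6 of 12 positive and a median of 0.0065 that ran from -0.084 to 0.030 with 1 library left out. Ppp1r15b, a subunit of the phosphatase that resets eIF2, had a log2 fold change of 0.20 ± 0.11 (edgeR adjusted p = 0.368), and Eif2b1 of the exchange factor eIF2B had -0.16 ± 0.13 (edgeR adjusted p = 0.534).

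The other targets of ATF4 and CHOP had a median of 0.28, with 8 of 15 positive; it was -0.01 over the 10 genes left by a stricter filter. Cebpg, a bZIP partner of ATF4, was at 23.7, 40.2 and 25.3 CPM under normal chow and at 48.0, 40.9 and 46.5 CPM under PE-MP chow. Normal chow library 2 came close to the PE-MP libraries but lay below all of them on the TMM scale. Cebpg overlapped between the chows with RLE factors, by DESeq2, and without PE-MP library 1 or 3. Its log2 fold change was 0.60 ± 0.22 (edgeR adjusted p = 0.229), and without normal chow library 2 it was 0.88 ± 0.12 (edgeR adjusted p = 0.0333). Nupr1, a stress-induced chromatin protein, had -0.58 ± 0.35 (edgeR adjusted p = 0.420). Without normal chow library 2 the list median was 0.03.

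Amino acid supply genes were described in 3 lists. Of the serine, glycine and one-carbon enzymes, 7 of 9 were negative, with a median of -0.10. On total counts the median was 0.20, beside 0.32 for all genes. Phgdh, the first enzyme of serine synthesis, was at 1.19, 0.749 and 0.415 CPM under normal chow and at 0.212, 0.293 and 0.177 CPM under PE-MP chow, without overlap. Its log2 fold change was -1.78 ± 0.46 (edgeR adjusted p = 0.154, DESeq2 adjusted p = 0.0247). Psat1, the next enzyme of that route, also parted the chows, with -1.40 ± 0.52 (edgeR adjusted p = 0.237), and was at -0.82 without normal chow library 2. These were levels of about 1 CPM or less, like those of Asns.

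The amino acid transporters had 4 of 9 positive and a median of -0.07, which was 0.23 on total counts, 0.070 when normal chow library 2 was dropped and -0.20 when normal chow library 3 was. Slc7a2, the main arginine and lysine carrier of hepatocytes, was at 281 to 542 CPM under normal chow and 651 to 827 CPM under PE-MP chow, without overlap (log2 fold change 0.66 ± 0.27, edgeR adjusted p = 0.264). The neutral amino acid carrier Slc38a2 had 0.50 ± 0.22 (edgeR adjusted p = 0.297). The cytosolic aminoacyl-tRNA synthetases had 11 of 20 positive and a median of 0.02, which ran from -0.045 to 0.059 with 1 library left out. Qars, the glutaminyl-tRNA synthetase, was at 9.19 to 12.5 CPM under normal chow and 15.4 to 23.9 CPM under PE-MP chow, without overlap (0.91 ± 0.21, edgeR adjusted p = 0.139, DESeq2 adjusted p = 0.00945). Iars, the isoleucyl-tRNA synthetase, had 0.21 ± 0.13 (edgeR adjusted p = 0.424).

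The other ER chaperones and folding enzymes had 8 of 18 positive and a median of -0.01, which was 0.29 on total counts and ran from -0.10 to 0.030 with 1 library left out. The prolyl isomerases Fkbp2 and Ppib had the smallest p and both parted the chows downwards. Fkbp2 was at 65.5 to 68.7 CPM under normal chow and 41.4 to 54.1 CPM under PE-MP chow (log2 fold change -0.49 ± 0.13, edgeR adjusted p = 0.154). Ppib had -0.30 ± 0.11 (edgeR adjusted p = 0.236). Among 16 other degradation genes 11 were negative, with a median of -0.07. On total counts the median was 0.22, beside 0.32 for all genes. The mannosidase-like Edem2 had -0.39 ± 0.12 (edgeR adjusted p = 0.184) and the channel component Derl2 -0.21 ± 0.10 (edgeR adjusted p = 0.327), both without overlap.

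The genes of ER translocation and signal peptide cleavage were 17 of 17 negative on the TMM scale, beside 8722 of 18043 tested genes. Their median was -0.26. The chows did not overlap for 7 of them, all lower, where 11.8% of all tested genes lay lower without overlap. By edgeR 0 of these 17 passed. DESeq2 called 3 of them, all lower, where it called 3.48% of all tested genes lower. Without normal chow library 2 or 3 the count of negatives was 16. Sec61b, a small subunit of the translocation channel, was at 32.9, 32.2 and 37.9 CPM under normal chow and at 23.0, 19.1 and 21.3 CPM under PE-MP chow. All PE-MP libraries lay below all normal chow libraries, with a log2 fold change of -0.70 ± 0.13 (edgeR adjusted p = 0.124, DESeq2 adjusted p = 0.000764). Sec61g, the other small subunit, had -0.57 ± 0.12 (edgeR adjusted p = 0.128, DESeq2 adjusted p = 0.00314). On total counts with no scaling factors 7 of 17 were negative and the median was 0.04, where the median of all genes was 0.32; with mitochondrial mRNAs and Rn18s-rs5 also left out, 13 of 17 were negative and the median was -0.10. Of 16 alternatives the median was negative in 15. After removal of the dependence on gene length and GC, a step chosen after seeing the data, all 17 were negative with a median of -0.30.

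The last list joined the mitochondrial stress relay, which also feeds the eIF2 pathway, with mitochondrial chaperones and proteases. It had 7 of 8 negative and a median of -0.15. On total counts the median was 0.16, beside 0.32 for all genes. Hspe1 and Clpp, with the smallest p of the list, are of the chaperones and proteases and not of the relay. Hspe1, the mitochondrial co-chaperonin, was at 92.4 to 111 CPM under normal chow and 65.9 to 73.8 CPM under PE-MP chow, without overlap (log2 fold change -0.54 ± 0.12, edgeR adjusted p = 0.135, DESeq2 adjusted p = 0.00499). The protease subunit Clpp had -0.38 ± 0.15 (edgeR adjusted p = 0.248).

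**Figure D5:**
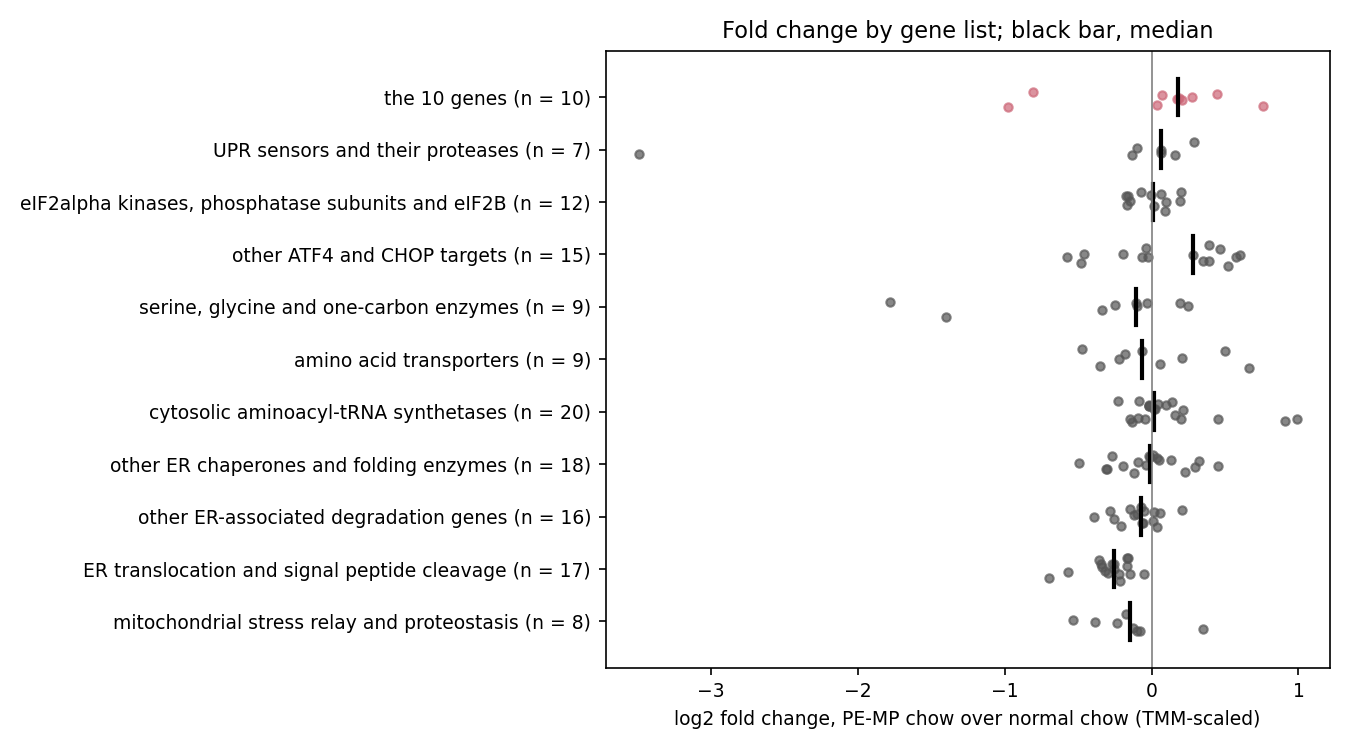
TMM-scaled log2 fold change of PE-MP over normal chow for the 10 genes (red) and for the tested genes of each wider list (grey), with the median of each list as a black bar. The 17 genes of ER translocation and signal peptide cleavage all lie left of 0 on this scale (7 of 17 on total counts with no scaling factors), and the single point at -3.49 is Creb3l3.

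Markers of other cell types were read beside these values, and by edgeR 0 of the tested markers passed in either direction. Their signs are on the TMM scale, where 51.7% of all tested genes were positive. Their sums are on total counts, where the median log2 fold change of all genes was 0.32. In bulk tissue, fewer cells of a type and less RNA per cell cannot be told apart. Plasma and B cells, which carry much ER, had 8 of 8 tested markers negative (of 9 listed), at a summed 19.2 to 57.7 CPM of total counts under normal chow and 9.53 to 11.9 under PE-MP chow. Kupffer cell markers were 7 of 7 positive, at a summed 74.7 to 100 and 135 to 209, and sinusoidal endothelial markers 6 of 6 positive, at 74.5 to 97.1 and 131 to 172. Stellate cell markers were 5 of 6 negative, with overlapping sums of 257 to 278 and 166 to 351. Their part in the values of the stress genes was not tested. Of 8 pancreatic acinar markers, 7 had 0 counts in all libraries and Cela2a reached at most 33 counts.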

How the data were processed

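Whole-number raw counts, 1 row a gene, are what the authors deposited, per the file headers and the values. The submitters' processing notes name bcl2fastq and build GRCm39. Aligner, counter, annotation and counting strand: not given in the sources used here. Per the labels' protocols, the library kit keeps the strand. The 6 per-library files matched the series table on all 56674 rows. The comparison of the chows used edgeR 4.0.16 under R 4.3.3 (quasi-likelihood F test, robust, TMM factors, default filter, 18043 genes, two-sided, Benjamini-Hochberg over all genes, threshold 0.05). Standard errors and 95% intervals were derived from each coefficient and F value with total degrees of freedom. Alternatives included DESeq2 1.42.0 and limma-voom (limma 3.58.1). The fit was tested on simulated counts. The members and lists were chosen with earlier results of these data known. Named were all 10 members, the 2 genes of smallest p in each list and the 3 profiles nearest to Hspa5 and Asns; Mars1 and Rn18s-rs5 were named after their values were seen. Cell markers were 7 lists; cholangiocyte markers had 3 of 5 positive. Gene lengths came from GENCODE M21 (GRCm38) and promoter sequences from RefSeq (GRCm38.p6).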

Additional observations from a re-analysis of the deposited data

How the results depend on the processing

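None of the 10 genes passed under any of the 17 alternatives run, which were RLE and upper-quartile factors, DESeq2, limma-voom, no and a stricter filter (where 7 of the 10 were tested), 6 libraries left out in turn, the replicate block, an adjusted p of 0.1, large genes left out, and, chosen after seeing the data, no scaling factors with and without mitochondrial mRNAs and 18S. Of 167 fold changes of single members, 160 kept their direction and 7 reversed. These came from the alternatives and from removing the dependence on length and GC, a step also chosen after seeing the data. With 1 library left out, Dnajb9 ran from -0.17 to 0.31, Trib3 from -0.017 to 0.51, Atf4 from -0.030 to 0.14, Sdf2l1 from -0.40 to 0.49 and Herpud1 from -0.24 to 0.55; Dnajb9 was also -0.11 after removing the dependence on length and GC. The members' median of 0.18 ran from 0.074 to 0.25 with 1 library left out and was 0.47 with no scaling factors, 0.34 with mitochondrial mRNAs and 18S left out as well, and 0.31 after removing the dependence on length and GC. Members without overlap numbered 0 to 3 with 1 library left out, and 3 with no scaling factors (34.6% of all tested genes higher, 2.65% lower). They numbered 0 with mitochondrial mRNAs and 18S left out as well (22.7% higher, 6.17% lower). The 3 without normal chow library 2 stood beside 25.8% of all tested genes higher and 23.9% lower. Without PE-MP library 1, Asns lay lower, where 3456 of 18371 tested genes lay higher and 3059 lower. Without PE-MP library 3, Hspa5 lay higher, where 3375 of 18405 lay higher and 3124 lower. Listed genes called numbered 8 by DESeq2 and 0 to 6 with 1 library left out. All genes called numbered 1 in the edgeR fit, 3 with RLE factors, 1186 by DESeq2, 15 by limma-voom, 23 with no filter, 22 with the stricter filter, 53 at an adjusted p of 0.1, 10 with no scaling factors and 1 to 1075 with 1 library left out; the cause was not tested. With the replicate number as a block 0 genes were called, and the median of the members was 0.14. Same-numbered libraries correlated at 0.064, 0.106 and 0.2004 in their deviations, and 5 of 6 libraries correlated best with their own number. Since 1 of these correlations lies under 0.1, the main fit did not pair the libraries. These values do not settle whether the numbers mark pairs. Low counts limit Ddit3, Asns and Chac1, at 15 to 75, 23 to 121 and 51 to 223 counts, and the stricter filter left them out.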
